A study of Mus musculus and Acomys cahirinus with 18 samples.

Results

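The genes described here encode carriers of amino acids, small peptides and monocarboxylates such as lactate. They were taken as every entry of 4 tables of kidney RNA comparisons whose symbol belongs to the solute carrier families Slc1, Slc3, Slc6, Slc7, Slc15, Slc16, Slc36, Slc38 or Slc43. The rule goes by name alone, but it was chosen with earlier results of these data known. The tables hold only entries at a false discovery rate (FDR) under 0.05, so a carrier appears here only where it passed in at least 1 comparison. The rule found 46 of the 6385 distinct symbols in the tables. Of these, 44 were carriers and 2, Slc36a1os and Slc6a19os, were transcripts of the opposite strand of a carrier gene and were not counted as carriers. RefSeq names 82 carrier genes in the 9 families, and 38 of them were in none of the tables.

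Kidney RNA was sequenced from wild-type male animals of 2 species, the house mouse strain C57BL/6 and the spiny mouse Acomys cahirinus, in 18 libraries with 3 in each group. Groups were sham operated controls and animals 2 or 5 days after unilateral ureteral obstruction, a closure of the left ureter that makes urine back up into the kidney. Ages in weeks were 7 to 14 for sham mice, 10.1 for day 2 mice and 10.1 to 14 for day 5 mice. Acomys sham, day 2 and day 5 animals were aged 9.9 to 14.3, 10.3 to 14.3 and 9.9 to 10.4. Each table compares 1 obstructed group with the sham animals of the same species and gives a log2 fold change, an FDR and a mean expression (logCPM, the log2 of CPM), but no value per library, so sample levels and depth are unknown here. The 3 sham libraries of each species differ in age, so they came from different animals. Whether the 3 libraries of each obstructed group came from 3 animals is not stated, so the FDRs measure the spread between these libraries. For a carrier with no entry the tables do not tell a steady level from a change that missed the threshold or from a gene left out of the fit.

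The proximal tubule recovers almost all filtered amino acids and peptides through carriers in its apical brush border and releases them to the blood through basolateral carriers. Many carriers of family 7 work as light subunits joined to a heavy subunit of family 3, and many monocarboxylate carriers of family 16 need a membrane chaperone. Dividing and stressed cells instead raise another set, among them the large neutral, cationic and cystine carriers of family 7 and the sodium-coupled carriers of family 38, several of which are known targets of the transcription factor ATF4. The tissue label was borne out by kidney genes in the authors' deposited tables, with a logCPM of 10.49 for the proximal tubule receptor gene Lrp2 in mouse and of 10.17 for Umod of the thick ascending limb in Acomys.

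In the obstructed mouse kidney more of the listed carriers fell than rose. On day 2 the authors' deposited table listed 28 carriers, of which 19 fell (67.9%) and 9 rose (32.1%), where over all 3915 entries 41.7% fell and 58.3% rose. On day 5 it listed 37 carriers, of which 22 fell (59.5%) and 15 rose (40.5%), against 39.1% fallen and 60.9% risen over 5365 entries. The median log2 fold change was -1.02 for the carriers and 1.03 for all entries on day 2, and -0.996 and 1.14 on day 5. The other solute carrier genes leaned the same way, with 76.9% fallen and 23.1% risen of 91 on day 2 and 76.7% fallen and 23.3% risen of 120 on day 5, so the excess of falls was not particular to these 9 families. Measured against RefSeq, 34.1% of the 82 carrier genes were listed on day 2 and 45.1% on day 5, against 15.4% and 21.2% of all 21900 protein-coding genes. The 21900 may include genes that were never tested in kidney. Entries were matched to RefSeq by symbol, so a gene listed under an older symbol would be missed in the share over all genes. All listed carriers were matched. Listed carriers also had a higher median logCPM than all entries, 5.40 against 3.70 on day 2 and 5.25 against 3.52 on day 5. The part of expression level in this difference was not tested. Falls made up the difference more than rises. On day 2 23.2% of the carrier genes were listed as fallen and 11% as risen, against 5.79% and 9.63% of all genes, and on day 5 the shares were 26.8% and 18.3% against 7.62% and 13.6%. At FDR under 0.01 the falls of day 2 numbered 12 in place of 19. The 2 days share the same 3 sham libraries, so their values are set side by side below and were not tested against each other.

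**Figure D1:**
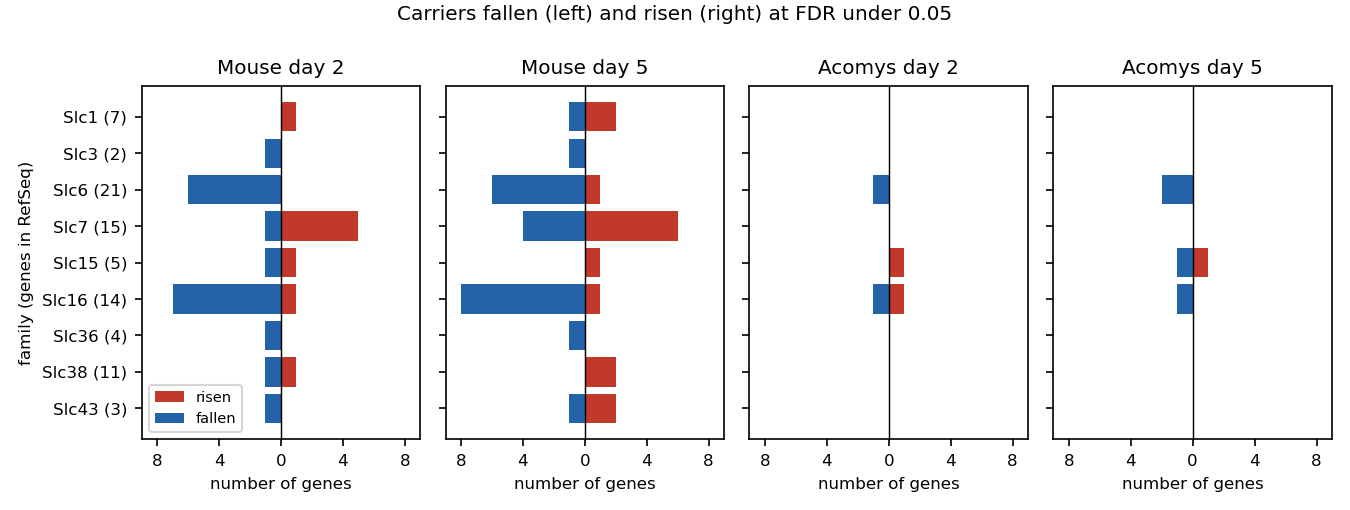
Number of carriers listed as fallen (blue, left) and risen (red, right) at FDR under 0.05 in each family, for the 4 comparisons with sham; brackets give the genes RefSeq names in the family. In mouse, families 6 and 16 lie mostly to the left and family 7 on both sides, and Acomys has few bars.

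Among the apical carriers of the proximal tubule, 5 of 10 fell on day 2 and 7 of 10 on day 5, and none rose in mouse. For all 82 carrier genes the shares listed as fallen were 23.2% and 26.8%, and for all protein-coding genes 5.79% and 7.62%. Slc7a13, a light subunit that carries aspartate, glutamate and cystine in the late proximal tubule, stood lowest on day 2 at -4.27 (rebuilt SE 0.989, FDR 0.000132) in the authors' deposited table, a level 19.3-fold below sham. That placed it at rank 29 of the 1633 falls of that day, while on day 5 its value was -2.40 (rebuilt SE 0.769, FDR 0.00488). Slc6a19, the main neutral amino acid carrier of the brush border and the gene of Hartnup disorder, had -1.95 on day 2 (rebuilt SE 0.487, FDR 0.000406) and -3.20 on day 5 (rebuilt SE 0.626, FDR 4.04e-06) in the authors' deposited tables. It moved from rank 449 of 1633 falls to rank 69 of 2096. These 2 carriers thus stood in opposite order on the 2 days, Slc7a13 lower on day 2 and Slc6a19 lower on day 5, a difference that was not tested.

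Slc6a20b, a paralogue of the proline carrier gene Slc6a20a, fell to a like extent on both days, by 2.02 (FDR 3.95e-06) and by 2.09 (FDR 1.61e-06) in the authors' deposited tables. Slc6a20a itself was listed on neither day, and reads of this closely related pair may have been shared between them. Slc3a1 encodes the heavy subunit rBAT, the partner of Slc7a9 and Slc7a13 and a gene of cystinuria. It fell by 0.957 on day 2 (FDR 0.00760) and by 1.22 on day 5 (FDR 0.000192) in the authors' deposited tables. Its light subunit for cystine and dibasic amino acids, Slc7a9, entered on day 5 at -1.42 (FDR 2.88e-05) in the authors' deposited table. Slc1a1, the epithelial glutamate and aspartate carrier, and Slc6a18, a glycine and neutral amino acid carrier, also entered on day 5, at -0.996 (FDR 0.00327) and -0.886 (FDR 0.0177) in the authors' deposited table. Slc15a2, the high-affinity peptide carrier PEPT2, was listed on day 2, at -1.22 (FDR 0.00685). The 10 include Slc15a1, the low-affinity peptide carrier PEPT1, which had no entry in mouse.

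**Figure D2:**
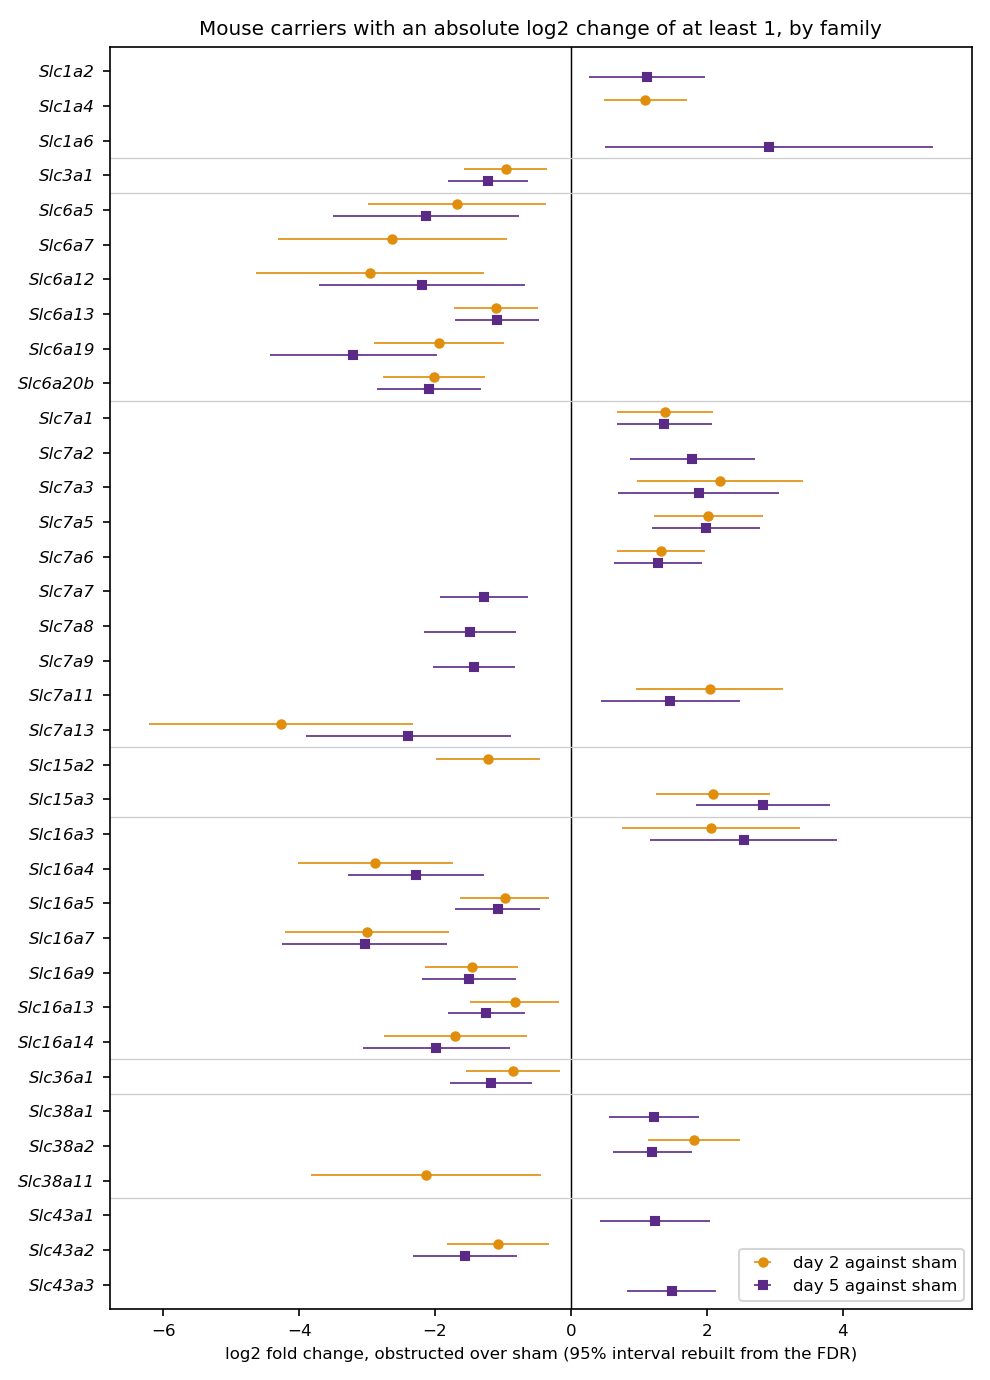
Log2 fold change, obstructed over sham, of the carriers listed in mouse with an absolute value of at least 1 on either day, on day 2 (orange circles) and day 5 (purple squares), grouped by family; bars are 95% intervals rebuilt from the authors' FDR. Family 16 lies left of 0 except Slc16a3, and family 7 splits into risen carriers such as Slc7a5 and fallen tubular carriers such as Slc7a13.

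Of 7 basolateral tubule carriers, 1 fell on day 2 and 3 on day 5, and none rose. For all 82 carrier genes the shares listed as fallen in mouse were 23.2% and 26.8%, and for all protein-coding genes 5.79% and 7.62%. Slc43a2, the large neutral carrier LAT4, stood at -1.07 on day 2 (FDR 0.0152) and -1.56 on day 5 (FDR 0.000263) in the authors' deposited tables. The exchanger light subunits Slc7a8 (LAT2) and Slc7a7 (y+LAT1, the gene of lysinuric protein intolerance) were listed on day 5 at -1.49 (FDR 8.35e-05) and -1.28 (FDR 0.000418) in the authors' deposited table. Their heavy subunit gene Slc3a2, the aromatic amino acid carrier gene Slc16a10, the glutamine carrier gene Slc38a3 and the taurine carrier gene Slc6a6 had no entry in any table.

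The promoter of Slc3a1 is shown because it is the shared heavy subunit of these apical exchangers and the only listed carrier whose window held the letters CAAAGTCCA, a form of the site bound by the hepatocyte and tubule factor HNF4. The window is the 250 bases before the RefSeq start (GRCm38.p6, chr17:85028097-85028346, + strand), read 5′ to 3′ in the direction of the gene, with the match in capitals, 39 bases before the start.
Slc3a1: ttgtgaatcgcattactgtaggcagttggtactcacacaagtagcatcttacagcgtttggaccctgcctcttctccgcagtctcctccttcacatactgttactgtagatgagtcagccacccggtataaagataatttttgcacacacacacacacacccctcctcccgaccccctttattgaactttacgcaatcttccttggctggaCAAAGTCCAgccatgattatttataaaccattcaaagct
The letters were searched on both strands, and 0.384% of all 32851 such windows, and at least 1 window of 0.451% of 27025 symbols, hold them. A match is a description of the sequence and not evidence that a factor binds there. Of the 82 carriers 58 had a window, and 27 of these were listed in mouse.

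The other listed carriers of family 6 carry glycine, betaine, GABA and proline, and in mouse all but Slc6a15 fell. Slc6a12, the betaine and GABA carrier BGT1 through which medullary cells take up osmolytes, stood at -2.95 on day 2 (rebuilt SE 0.857, FDR 0.00249) and -2.20 on day 5 (rebuilt SE 0.772, FDR 0.0105) in the authors' deposited tables, at a low logCPM of 0.379. Its genomic neighbour Slc6a13, the GABA and taurine carrier GAT2, changed less, by -1.11 (FDR 0.00199) and -1.09 (FDR 0.00173). The glycine carrier gene Slc6a5 was listed at -1.68 (FDR 0.0347) and -2.13 (FDR 0.00587) in the authors' deposited tables, at a logCPM of -1.45. Slc6a7, a proline carrier known mainly from the brain, was listed on day 2 at -2.63 (FDR 0.00783) with a logCPM of -1.75. Slc6a15, the neutral amino acid carrier B0AT2, rose on day 5 by 0.993 (FDR 0.00107) in the authors' deposited table.

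Family 7 held 5 of the 9 mouse rises of day 2 and 6 of the 15 of day 5. Of 9 carriers that ATF4 is known to drive, 6 rose on day 2 and 5 on day 5, none fell in mouse, and Slc1a5, Slc3a2 and Slc6a9 were listed on neither day. For all 82 carrier genes the shares listed as risen were 11% and 18.3%, and for all protein-coding genes 9.63% and 13.6%. Slc7a5, the large neutral amino acid carrier LAT1, rose 4.05-fold on day 2 (log2 2.02, rebuilt SE 0.409, FDR 1.47e-05) and 3.95-fold on day 5 (log2 1.98, rebuilt SE 0.406, FDR 1.01e-05) in the authors' deposited tables. Slc38a2, the sodium-coupled neutral carrier SNAT2 that responds to amino acid shortage, rose by 1.81 (rebuilt SE 0.344, FDR 4.54e-06) and 1.20 (rebuilt SE 0.295, FDR 0.000232). Slc7a11, which encodes the cystine and glutamate exchanger xCT that feeds glutathione synthesis, rose by 2.04 (FDR 0.00112) and 1.46 (FDR 0.0115) in the authors' deposited tables, at a logCPM of -0.193. Slc1a4, the small neutral carrier ASCT1, was listed on day 2 at 1.10 (FDR 0.00191).

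Carriers of the CAT type bring arginine and lysine into cells, and 2 of them rose on day 2 and 3 on day 5, while Slc7a4, named for the same type, was not listed. Slc7a1 (CAT1) rose by 1.38 on each day (FDR 0.000696 and 0.000504), and Slc7a3 (CAT3) by 2.19 (FDR 0.00192) and 1.88 (FDR 0.00485) at a logCPM of -0.215, in the authors' deposited tables. Slc7a2 (CAT2), known for supplying arginine in activated macrophages, entered on day 5 at 1.78 (FDR 0.000568) in the authors' deposited table. The exchanger light subunit Slc7a6 (y+LAT2) rose by 1.32 (FDR 0.000423) and 1.28 (FDR 0.000434), while its paralogue Slc7a7 fell on day 5. In family 7 as a whole 5 rose and 1 fell on day 2, and 6 rose and 4 fell on day 5, of 15 genes. Over all 82 carrier genes 11% were listed as risen and 23.2% as fallen on day 2, and 18.3% and 26.8% on day 5.

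The promoter of Slc7a11 is shown because among risen carriers it was the only one whose window held TGATGNAA, the core of the element through which ATF4 and C/EBP factors are known to act. The 250 bases before its start (GRCm38.p6, chr3:50443614-50443863, - strand) hold the letters at 2 sites, on opposite strands, which do not overlap. They are in capitals below, the first starting 66 bases before the start.
Slc7a11: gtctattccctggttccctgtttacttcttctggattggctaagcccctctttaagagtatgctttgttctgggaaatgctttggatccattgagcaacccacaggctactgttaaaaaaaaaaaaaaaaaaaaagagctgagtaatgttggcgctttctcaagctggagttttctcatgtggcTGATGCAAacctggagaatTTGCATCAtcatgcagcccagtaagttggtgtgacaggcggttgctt
Over both strands 3.45% of all 32851 windows, and at least 1 window of 3.91% of 27025 symbols, hold these letters. In carriers with a window they were found in 1 of 9 risen, 1 of 18 fallen (Slc7a7) and 1 of 31 not listed in mouse. The known elements of some ATF4 targets lie outside such windows, so a window without the letters says nothing of the factor.

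Monocarboxylate carriers of family 16 fell in 7 cases on day 2 and 8 on day 5, with 1 rise on each day, of 14 genes. Over all 82 carrier genes 23.2% were listed as fallen and 11% as risen on day 2, and 26.8% and 18.3% on day 5. Slc16a7 encodes MCT2, a high-affinity carrier for the uptake of lactate, pyruvate and ketone bodies. It stood at -3.00 on day 2 (rebuilt SE 0.616, FDR 1.81e-05) and -3.03 on day 5 (rebuilt SE 0.619, FDR 9.57e-06) in the authors' deposited tables, on day 5 8.19-fold below sham. The rise was that of Slc16a3, the low-affinity carrier MCT4 through which glycolytic cells export lactate, at 2.06 (rebuilt SE 0.668, FDR 0.00741) and 2.54 (rebuilt SE 0.703, FDR 0.00102). Uptake and export carriers of lactate therefore differed in direction, and the common lactate carrier gene Slc16a1 (MCT1) had no entry in any table.

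Slc16a4, a carrier whose substrate in the kidney is not settled, fell by 2.88 (FDR 1.31e-05) and 2.28 (FDR 4.95e-05), and Slc16a14 by 1.70 (FDR 0.00562) and 1.98 (FDR 0.00116), in the authors' deposited tables. Slc16a9, a carnitine carrier, stood at -1.46 (FDR 0.000215) and -1.51 (FDR 0.000106) in the authors' deposited tables. Slc16a5 and Slc16a13 had values of -0.974 and -0.829 on day 2 and -1.08 and -1.24 on day 5, and the creatine carrier gene Slc16a12 was listed on day 5 at -0.909 (FDR 0.0290) in the authors' deposited tables.

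In the smaller families the lysosomal carriers differed in direction. Slc15a3 (PHT2), which exports histidine and small peptides from endosomes and lysosomes and is known from macrophages and dendritic cells, rose by 2.09 on day 2 (rebuilt SE 0.426, FDR 1.58e-05) and 2.82 on day 5 (rebuilt SE 0.504, FDR 7.16e-07) in the authors' deposited tables. Slc36a1 (PAT1), a proton-coupled carrier of lysosomes and brush borders, stood at -0.846 (FDR 0.0431) and -1.18 (FDR 0.000452). The transcript Slc36a1os of its opposite strand was listed on day 2 at -1.55 (FDR 0.0228), and Slc6a19os, opposite Slc6a19, on day 5 at -1.99 (FDR 0.00478) in the authors' deposited tables. No source used here says whether counting used strand, so the members of each pair cannot be told apart.

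Slc38a1 (SNAT1), a glutamine carrier, rose on day 5 by 1.22 (FDR 0.00109), and the large neutral carrier gene Slc43a1 (LAT3) by 1.23 (FDR 0.00708), in the authors' deposited table. Slc43a3, a purine base carrier, rose on day 5 by 1.48 (FDR 5.92e-05). The glutamate carrier genes Slc1a2 (GLT-1) and Slc1a6 (EAAT4) were listed on day 5 at 1.12 (FDR 0.0212) and 2.91 (FDR 0.0349), the latter at the lowest logCPM of the listed carriers, -2.18, in the authors' deposited table. Slc38a11 was listed on day 2 at -2.13 (FDR 0.0371) with a logCPM of -1.61. Among carriers that lie next to each other in RefSeq, or with at most 1 gene between, 4 of 11 pairs had both genes listed in mouse and all 4 pairs shared a direction. Slc6a12 with Slc6a13 and Slc6a18 with Slc6a19 fell, and Slc38a1 with Slc38a2 and Slc43a1 with Slc43a3 rose. How often neighbouring listed genes in general share a direction was not computed, so no conclusion is drawn from these pairs.

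**Figure D3:**
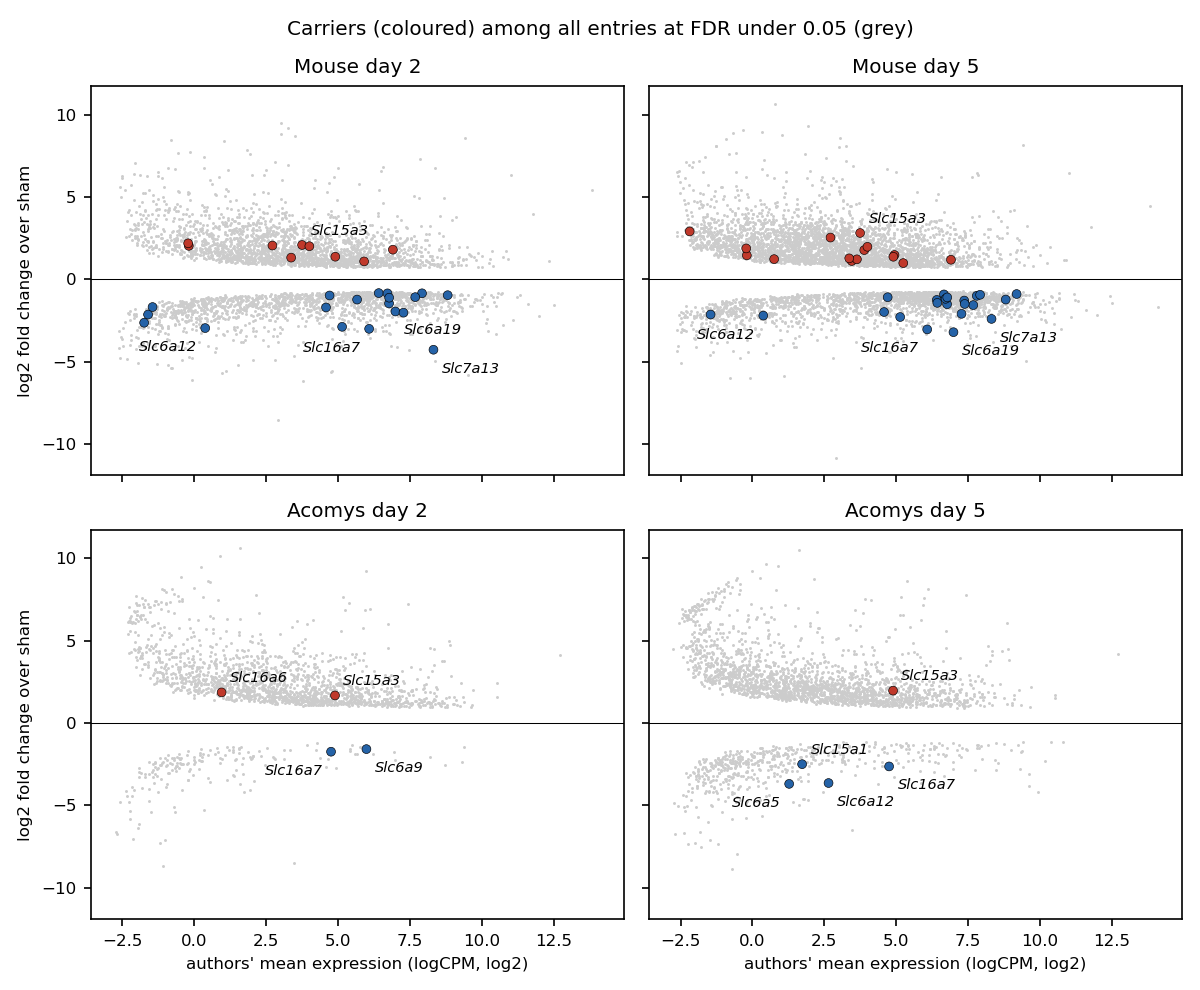
Log2 fold change over sham against the authors' mean expression (logCPM) for every entry at FDR under 0.05 (grey) and for the carriers (red risen, blue fallen), with some carriers named. Slc7a13 lies lowest among the mouse carriers on day 2 at a logCPM of 8.32, and 5 of 28 mouse carriers on day 2 and 4 of 37 on day 5 have a logCPM below 0.

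In Acomys few carriers were listed. On day 2 the authors' deposited table held 4, of which 2 fell (50%) and 2 rose (50%), where 10.1% of its 1765 entries fell and 89.9% rose, and 9.09% and 90.9% of its 11 other solute carrier genes. On day 5 it held 5, of which 4 fell (80%) and 1 rose (20%), against 21.4% fallen and 78.6% risen over 2500 entries, and 52.4% and 47.6% of 21 other solute carrier genes. At FDR under 0.01 the day 2 table kept 1 risen carrier and 0 fallen. None of the 15 genes of family 7 was listed on either day, and of the apical tubule carriers only Slc15a1 was. Loci without a symbol numbered 644 on day 2 and 1094 on day 5, and the smallest falls listed were 1.23 and 1.12. Of the mouse carriers that fell and had no Acomys entry, 10 of 18 on day 2 and 13 of 19 on day 5 fell by at least that much in mouse, while 4 and 1 fell by at least the median Acomys fall (-2.43 and -2.40). Of the mouse carriers that rose and had no Acomys entry, 8 of 8 and 14 of 14 rose by at least the smallest rise listed in Acomys, 0.952 and 0.929. The median rises listed in Acomys were larger, 2.15 on day 2 and 2.27 on day 5. Those of all risen mouse carriers were 2.02 and 1.46, below these Acomys medians. Whether these carriers were tested in Acomys is not told by the tables.

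Slc15a3 was 1 of the 2 carriers listed in all 4 tables. In Acomys it rose by 1.68 on day 2 (rebuilt SE 0.416, FDR 0.00121) and 1.97 on day 5 (rebuilt SE 0.437, FDR 0.000309) in the authors' deposited tables. The other was Slc16a7, at -1.74 on day 2 (rebuilt SE 0.626, FDR 0.0359) and -2.63 on day 5 (rebuilt SE 0.671, FDR 0.00166). On day 5 Slc6a12 fell by 3.64 (rebuilt SE 0.921, FDR 0.00155) and Slc6a5 by 3.69 (rebuilt SE 1.37, FDR 0.0336), as both did in mouse. The 3 carriers listed for Acomys and not for mouse were Slc15a1 on day 5 at -2.49 (FDR 0.00287), Slc6a9, the glycine carrier GlyT1, on day 2 at -1.58 (FDR 0.0459), and Slc16a6, known in zebrafish as a ketone body carrier, on day 2 at 1.87 (FDR 0.0284), in the authors' deposited tables. Their difference from mouse could not be tested without a mouse value.

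The size of the response was compared between species for the carriers listed in both on the same day, with errors rebuilt from the authors' edgeR FDRs and adjustment over all 729 shared symbols on day 2 and 1011 on day 5. No carrier passed the test, 0 of 2 on day 2 and 0 of 4 on day 5, against 5.08% and 5.14% of all shared symbols, and 0 had an unadjusted p under 0.05. Acomys minus mouse was -0.41 for Slc15a3 on day 2 (95% interval -1.58 to 0.756, adjusted p = 0.888) and -0.85 on day 5 (-2.16 to 0.459, adjusted p = 0.654). For Slc16a7 it was 1.26 on day 2 (-0.457 to 2.99, adjusted p = 0.675) and 0.40 on day 5 (-1.39 to 2.19, adjusted p = 0.903). On day 5 it was -1.44 for Slc6a12 (-3.80 to 0.914, adjusted p = 0.686) and -1.56 for Slc6a5 (-4.56 to 1.45, adjusted p = 0.750). Each interval includes 0 and is wide, so the test does not show that the species responded alike. The Acomys loci were named by the authors from UniProt entries of other species, so a paralogue could stand behind a name.

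**Figure D4:**
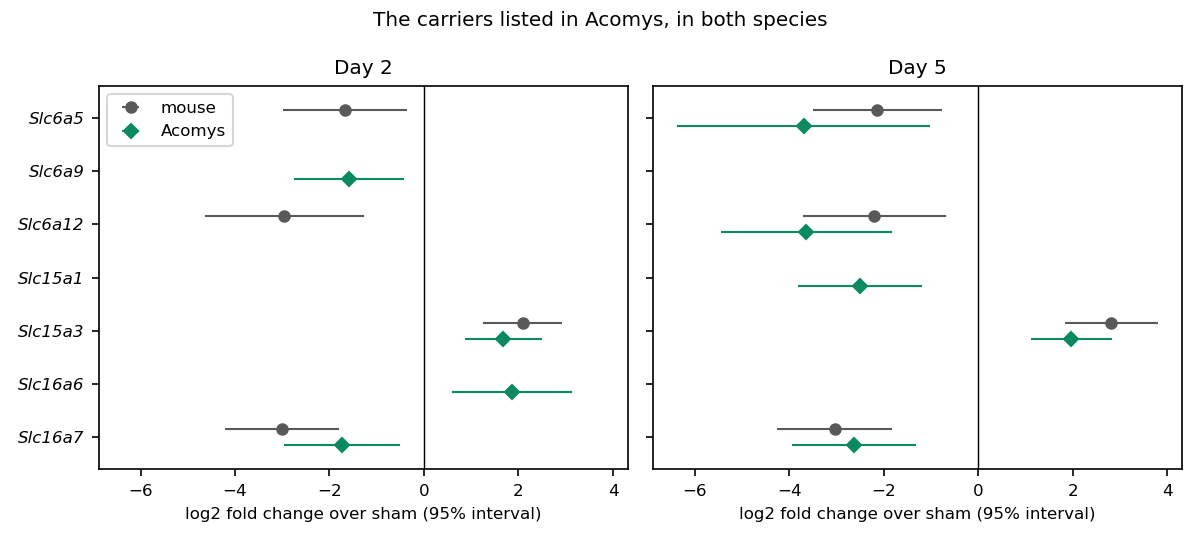
Log2 fold change over sham, with 95% intervals rebuilt from the authors' FDR, of the 7 carriers listed in Acomys (green diamonds) and of the same carriers where listed in mouse (grey circles), on day 2 and day 5. Slc15a3 lies right of 0 and Slc16a7 left of 0 in all 4 comparisons, with overlapping intervals.

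Of 7 carrier partners 3 fell on each day in mouse (Cltrn, Pdzk1 and Ace), none rose and 4 were not listed, where 5.79% of all protein-coding genes were listed as fallen on day 2 and 7.62% on day 5. In Acomys Ace rose on both days and Emb, a chaperone of monocarboxylate carriers, on day 5 by 1.28 (FDR 0.0106) in the authors' deposited table. Cltrn (listed as Tmem27), the collectrin that brings Slc6a19 to the brush border, fell by 1.40 on day 2 (FDR 1.01e-05) and 1.70 on day 5 (FDR 9.02e-07) in the authors' deposited tables, and the scaffold gene Pdzk1 stood at -1.09 and -1.51. The chaperone gene Bsg of the monocarboxylate carriers had no entry in any table. Of 9 genes of the gamma-glutamyl cycle and brush border peptidases 6 fell on each day and 3 were not listed, with Ggt1, which splits glutathione, at -1.25 and -1.66 and Anpep, aminopeptidase N, at -1.36 and -1.33 in the authors' deposited tables. In Acomys Dpep1 rose on both days and Gclc, of glutathione synthesis, on day 5 by 1.11 (FDR 0.0288) in the authors' deposited table.

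Of 6 glutamine and ammonia genes 2 fell in mouse on day 2 and 4 on day 5, none rose and the others were not listed. Of 8 arginine and creatine genes 4 fell and 2 rose on day 2, and 5 fell and 3 rose on day 5. Over all protein-coding genes 5.79% were listed as fallen and 9.63% as risen on mouse day 2, and 7.62% and 13.6% on day 5. Gatm, the first enzyme of creatine synthesis, stood at -2.46 and -3.22 and the arginine synthesis enzyme gene Ass1 at -2.76 and -2.99 in the authors' deposited tables. The arginases rose, Arg1 by 5.16 and 3.83 and Arg2 by 3.91 and 3.08. The mitochondrial pyruvate carrier genes Mpc1 and Mpc2 stood at -1.21 and -1.11 on day 2 and at -1.46 and -1.18 on day 5, and the lactate dehydrogenase genes Ldha and Ldhb had no entry. In Acomys none of the glutamine and ammonia genes and none of these pyruvate and lactate genes was listed. Of the arginine and creatine genes, Gamt, an enzyme of creatine synthesis, was at -1.63 (FDR 0.0242) and Nos2, inducible nitric oxide synthase, at 1.44 (FDR 0.0166) on Acomys day 5 in the authors' deposited table.

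Of 13 other genes of the ATF4 amino acid response 8 rose and 1 fell in mouse on day 2, and 5 rose and 1 fell on day 5, where 9.63% and 13.6% of all protein-coding genes were listed as risen. Asns, asparagine synthetase, stood at 2.56 and 2.11 and Trib3 at 3.58 and 2.53 in the authors' deposited tables. The fall was that of Shmt2, a mitochondrial serine enzyme, at -1.55 and -1.81. In Acomys 3 of the 13 rose on day 2 (Atf4 at 1.05, Trib3 at 1.64 and Psat1 at 2.09), and on day 5 2 rose and Shmt2 fell by 1.23 in the authors' deposited tables. Of the 9 ATF4-driven carriers 1, Slc6a9, fell in Acomys on day 2 and none rose, in a table with fewer entries and 644 loci without a symbol, so the counts of the species were not compared. On day 2 Atf4 itself was listed in both species, at 1.28 and 1.05 (difference -0.23, adjusted p = 0.918).

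Ace and Dpep1 of these lists moved in opposite directions in the species and passed the test of the difference. Only symbols listed in both species entered that test, with errors rebuilt from the same FDRs. Values of opposite sign were therefore likely to pass, and passing adds little to the signs. Ace, the angiotensin-converting enzyme and a brush border peptidase, stood at -1.01 in mouse and 2.62 in Acomys on day 2, a difference of 3.63 (rebuilt SE 0.689, adjusted p = 8.27e-06). On day 5 it was at -0.966 and 2.05 (adjusted p = 0.000230). Dpep1, the renal dipeptidase that splits cysteinylglycine, was at -2.86 and 1.44 on day 2, a difference of 4.30 (rebuilt SE 0.675, adjusted p = 4.52e-08), and at -2.11 and 1.29 on day 5 (adjusted p = 6.11e-06).

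**Figure D5:**
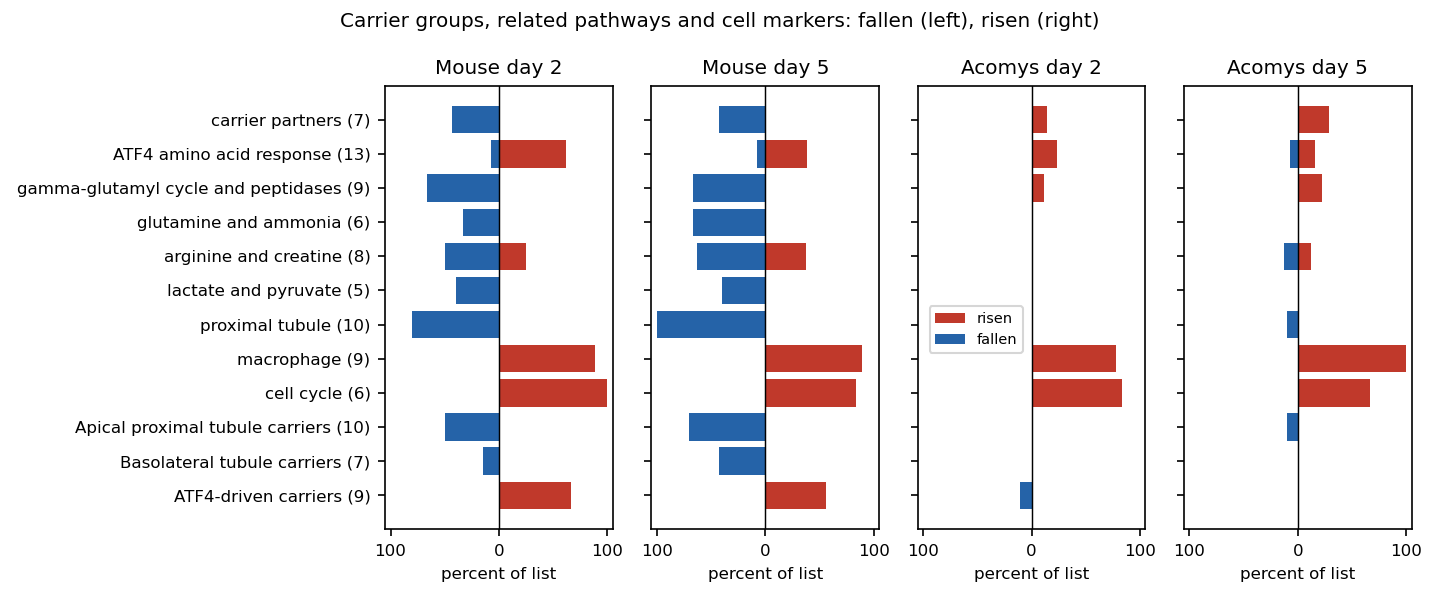
Percent of the genes of each list shown that fell (blue, left) or rose (red, right) at FDR under 0.05, in the 4 comparisons. Brackets give the number of genes in the list. In mouse the apical carriers lie on the side of the proximal tubule markers. The ATF4-driven carriers lie on the side of the cell cycle and macrophage markers. In Acomys the proximal tubule list is nearly empty. Lists of loop and distal tubule, collecting duct, podocyte, T cell and fibroblast markers are not drawn. Of the loop and distal tubule markers 5 of 6 fell in mouse on both days and in Acomys on day 5. Fibroblast markers rose in both species.

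Values of cell type markers are set here beside those of the carriers. In a whole kidney, fewer cells of a type and less RNA per cell cannot be told apart. Of 10 proximal tubule markers 8 fell on mouse day 2 (-3.15 to -1.17) and 10 on day 5 (-2.59 to -1.27), while in Acomys 0 were listed on day 2 and 1, Fbp1, fell on day 5 by 1.14, per the authors' deposited tables. Of 9 macrophage markers 8 rose in mouse on each day (1.27 to 3.11, then 2.98 to 4.07), and in Acomys 7 rose on day 2 (1.71 to 3.28) and 9 on day 5 (1.79 to 3.77). Of 6 cell cycle genes 6 and 5 rose in mouse and 5 and 4 in Acomys. Of 6 loop and distal tubule markers 5 fell in mouse on both days and in Acomys 0 were listed on day 2 and 5 fell on day 5. Fibroblast markers rose in 4 and 6 of 6 cases in mouse and in 5 and 5 in Acomys, T cell markers in 2 and 5 of 6 and in 1 and 3, and none of these fell. Of 4 collecting duct markers 2 fell on mouse day 5 and 1 on Acomys day 5, and no podocyte marker of 4 was listed. Over all protein-coding genes 9.63% were listed as risen and 5.79% as fallen on mouse day 2. On mouse day 5 these shares were 13.6% and 7.62%. For Acomys no such share was computed, and 89.9% of all its entries rose on day 2 and 78.6% on day 5. Summed marker levels per group are not given in these tables, and the part of these cell types in the carrier changes was not tested.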

How the data were processed

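Kidney RNA from 18 libraries was processed with Salmon, edgeR and the build mm9, as named per the submitters' processing notes. No source used here gives versions, settings, read totals or the reference used for Acomys. The authors deposited 4 tables with a log fold change and a logCPM, both read as log2 values as edgeR writes them, and an FDR, which is an adjusted p-value. Every entry has an FDR under 0.05 and none has a value per library, so no gene was refitted.

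Members and lists were chosen with earlier results of these data known. Carriers were matched by symbol and counted as listed, beside the share over all entries. All carriers are counted, and the values of 1 are not reported here. Full values are given for those listed in at least 3 tables or in both species, with an absolute log2 fold change of at least 2 or with opposite signs, and the others are named by role.

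A standard error was derived for each log2 fold change by dividing its absolute value by a z score. The z score came from an unadjusted p, taken as FDR multiplied by rank and divided by 10000 assumed tests. Species were compared on the same day by a two-sided normal test of the difference, with Benjamini-Hochberg adjustment over all shared symbols. The procedure was run on simulated data built with the same 10000 tests and normal errors, so that run could not check these assumptions. Promoter windows came from RefSeq (GRCm38.p6), a build other than mm9, and were matched by symbol. Analyses used Python 3.11.15, pandas 2.3.3 and scipy 1.17.1. No library could be left out because none has its own values.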

Additional observations from a re-analysis of the deposited data

Results flagged for a closer look

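Ace and Dpep1 were marked because their response differed between the species by a test of the difference itself. That test covered only symbols listed in both species, where values of opposite sign were likely to pass. Acomys minus mouse was 3.63 on day 2 and 3.02 on day 5 for Ace, with adjusted p from 2.17e-06 to 0.000852 and from 6.01e-05 to 0.00728 over the assumptions tried. For Dpep1 it was 4.30 and 3.41, with adjusted p from 9.38e-09 to 5.22e-05 and from 1.2e-06 to 0.000697. Ace had a logCPM of 7.97 in mouse and 4.66 in Acomys, and Dpep1 of 6.15 and 4.62, in the authors' deposited tables, on scales that are not comparable between species. Each comparison rests on 3 libraries a group.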

How the results depend on the processing

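Of 52 alternative counts and medians, 48 stayed within 1.5 times of the count reported or, for a median, moved by less than the carriers' median rebuilt error. The others came with FDR under 0.01, where the carriers fallen on mouse day 2 numbered 12 in place of 19, those risen on Acomys day 2 numbered 1 in place of 2, those fallen there 0 in place of 2, and the median of Acomys day 2 was 1.68 in place of 0.05, because fewer carriers were left. At that threshold 21, 31, 1 and 4 carriers remained on mouse day 2, mouse day 5, Acomys day 2 and Acomys day 5. A minimum absolute log2 change of 1, a minimum logCPM of 0 and 1 entry per symbol moved no count by more than 1.5 times. No carrier had more than 1 entry in a comparison, so the setting of 1 entry per symbol could move nothing. In Acomys every listed carrier already passed the limits on log2 change and logCPM. Those alternatives stayed the same by construction. The number of carriers that differed between species was 0 on both days with 5000 or 20000 assumed tests, with the FDR in place of p, and with the entry of lowest FDR for a symbol; adjusted p ranged from 0.592 to 0.979 on day 2 and from 0.602 to 0.979 on day 5. With 5000 assumed tests or the FDR in place of p, every rebuilt error was at least as large as in the main setting. Those 2 settings could therefore not raise a count of 0. The entry of lowest FDR was also the main entry of every carrier, so that setting could not move a carrier's own value. The same settings for Ace and Dpep1 were chosen after seeing the data. No paired analysis was possible because the tables hold no value per library, and for the same reason no replicate was left out. Depth is unknown, and carriers of low mean expression, such as Slc1a6 at a logCPM of -2.18, had wide rebuilt errors (SE 1.23).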
